A study of Mus musculus with 10 samples.

Results

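The genes described here are 10 mouse tubulins, Tuba1a, Tuba1b, Tuba3a, Tuba3b and Tuba8 for α-tubulin and Tubb2a, Tubb2b, Tubb3, Tubb4b and Tubb5 for β-tubulin. They are a list of gene names with no threshold on a value, and all 10 have a row among the 28125 genes of the RNA matrix and among the 30670 genes of the scATAC matrix. Each matrix holds 13 testis cell populations.

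α-tubulin and β-tubulin pair into the dimers from which microtubules are built, and each protein is made from several genes, the isotypes, whose products differ mainly in their acidic C-terminal tails. Spermatogenesis uses microtubules in the mitotic and meiotic spindles, in the manchette that shapes the spermatid head and in the axoneme of the sperm tail. Sertoli cells, the somatic cells that nurse the germ cells, hold long microtubule bundles of their own. Tubulin mRNAs share much of their coding sequence, so counts of closely related isotypes need care.

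Nuclei of whole testes were profiled for RNA and for chromatin accessibility in parallel, and each condition gave 1 RNA and 1 scATAC library. The 5 conditions were C57BL/6J wild-type (WT) mice at 11, 17 and 25 dpp, 8-week-old Cre/+ mice, and 8-week-old Nfya-CKO mice. Nfya-CKO mice are Nfya fl/fl; Stra8-Cre, and lose exons 5 to 6 of Nfya where the Stra8 promoter drives Cre, in spermatogonia and preleptotene spermatocytes; Cre/+ mice carry the driver without this loss. NFYA is the DNA-binding subunit of NF-Y, a transcription factor that binds CCAAT boxes, and the study asked which factor opens the chromatin of meiotic promoters in early germ cells. The number of animals per library is not given in the sources used here.

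The 13 populations are undifferentiated and differentiating spermatogonia (SPG_undiff, SPG_diff), preleptotene spermatocytes (preLep), leptotene to zygotene spermatocytes (Lep_Zygo1, Lep_Zygo2), pachytene and diplotene spermatocytes (pSC, dSC), round and elongating spermatids (rST, eST), Sertoli cells of the controls (soma_Sertoli), 2 other somatic groups (soma_CKO, soma_unknown) and the undifferentiated spermatogonia labelled Nfya-CKO (SPG_undiff_CKO). The authors' RNA value was turned back to a mean number of UMIs, the tags that mark captured molecules, per 10000 UMIs of a cell. The scATAC value was scaled to a sum of 1000000 per population. Each value pools all libraries of a population, so it has no replicate, no error and no p-value, and the order of close values was not tested. RNA populations held 99 (soma_unknown) to 8107 (Lep_Zygo2) cells, and scATAC populations held 54 to 5805 nuclei, with 124 in eST. RNA libraries held 30227701 to 64967271 UMIs, and 1 UMI in a cell of median depth was worth 0.000281 to 0.0213 per 10000 in a population's mean.

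Some cells and libraries limited these values. Of 45201 RNA cells, 10557 carried a cell barcode that also occurred in another library, and in the library labelled Nfya-CKO these were 3815 of 5152 cells. In eST, 712 of 1193 cells shared a barcode, and in 709 of 713 such pairs the partner was a soma_CKO cell. In SPG_undiff_CKO 35.6% and in SPG_diff 49.1% of cells shared one, against 0.247% of the scATAC nuclei with an RNA population. The pooled columns cannot be recomputed without these cells, and their part in the tubulin values was not tested. The Sertoli markers Sox9, Wt1, Amh, Clu and Rhox5 summed to 56.0 UMIs per 10000 in soma_Sertoli, 98.5 in soma_CKO and 3.68 in rST, but to 35.9 in eST. Clu made up most of each of these sums, and without it they were 21.9, 7.05, 0.775 and 4.55. In SPG_undiff_CKO the sum was 24.4 against 3.70 in SPG_undiff, and without Clu 1.59 against 1.20. The Leydig cell markers summed to 49.3 in SPG_undiff_CKO against 0.208. The largest Leydig sum, 218, was in soma_CKO, so that population is not Sertoli cells alone. The markers of undifferentiated spermatogonia summed to 19.6 in SPG_undiff_CKO and 21.3 in SPG_undiff. Nfya RNA was 1.11 per 10000 in SPG_undiff_CKO and 0.456 in SPG_undiff; this value counts the whole gene and does not check the removal of exons 5 to 6.

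The sequences upstream of the start sites show where the tubulins differ in CCAAT, the motif that NF-Y binds. The window was the 250 bases before each RefSeq start (GRCm38.p6), searched for CCAAT on both strands, and 9 of the 10 members had an entry. The windows of Tuba3a and Tubb4b, the isotypes with the most matches, are given whole on the gene's strand, with the matches in capitals.
Tuba3a, chr6:125286082-125286331, minus strand: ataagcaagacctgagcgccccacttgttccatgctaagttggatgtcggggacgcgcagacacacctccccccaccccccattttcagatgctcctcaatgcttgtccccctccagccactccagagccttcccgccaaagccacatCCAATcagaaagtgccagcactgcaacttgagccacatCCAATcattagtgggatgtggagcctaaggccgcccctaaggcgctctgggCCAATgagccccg
Tubb4b, chr2:25224703-25224952, minus strand: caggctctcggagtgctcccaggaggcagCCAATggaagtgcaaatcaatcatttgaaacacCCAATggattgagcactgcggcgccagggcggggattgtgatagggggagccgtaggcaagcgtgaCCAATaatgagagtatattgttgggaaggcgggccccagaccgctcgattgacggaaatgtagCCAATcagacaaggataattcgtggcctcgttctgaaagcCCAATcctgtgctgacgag
The Tubb4b window held 5 matches, at 221, 188, 122, 59 and 19 bases before the start, and 0.213% of the 32851 windows of all genes held at least 5. The Tuba3a window held 3 matches, at 102, 64 and 13 bases, and 2.79% of windows held at least 3.

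Tuba3b, Tubb5, Tuba1a and Tubb3 held fewer, and 25 bases around each match are given, on the strand of the gene, to show the shared stretches.
Tuba3b at 89 bases, chr6:145615864-145615888, plus strand: aaatttacatCCAATcagaaagtac
Tuba3b at 51 bases, chr6:145615902-145615926, plus strand: tgagccacatCCAATcgcaaaaagg
Tubb5 at 198 bases, chr17:35838485-35838509, minus strand: caagataaccCCAATtcctcataca
Tubb5 at 90 bases, chr17:35838377-35838401, minus strand: ggctcagaaaCCAATggccgcctgg
Tuba1a at 176 bases, chr15:98953663-98953687, minus strand: gtcgcttgcaCCAATcaccactctc
Tubb3 at 77 bases, chr8:123411466-123411490, plus strand, where the match is the reverse complement ATTGG: gcgctccagcATTGGcccgcagcgc
Tuba3a and Tuba3b both held a pair of CCAAT exactly 38 bases apart on the gene's strand. Their upstream windows were identical in 67.6% of bases. The spacing was taken from these genes, and 13 of the 32851 windows (0.0396%), theirs included, held it. This share is a description and not a test. Among all windows 33.8% held at least 1 match and 10.1% at least 2. The Tuba1b, Tuba8 and Tubb2a windows held none of these letters. A match is a description of sequence and does not show that NF-Y was bound there.

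All 10 genes are short, with 4 or 5 exons, and lie on 6 chromosomes. Tuba1a (chr15:98949847-98953501) and Tuba1b (chr15:98931429-98934390) are neighbours on the minus strand, as do Tubb2a (chr13:34074278-34078008) and Tubb2b (chr13:34127008-34130354). Tuba3a (chr6:125278270-125286081), Tuba3b (chr6:145615963-145621477) and Tuba8 (chr6:121210734-121226098) share chromosome 6. Tubb3 is at chr8:123411553-123422015, Tubb4b at chr2:25222158-25224702 and Tubb5 at chr17:35833920-35838301. The authors counted uniquely mapped reads, which drops reads from stretches that occur exactly elsewhere in the genome. Of the 71-base windows of the transcript, 82.2% of Tuba1b and 63.1% of Tuba1a had such a copy, against 44.2% in Tubb2a, 45.6% in Tubb2b, 43.1% in Tubb4b, 23.1% in Tuba3b, 20.9% in Tuba3a, 5.27% in Tubb3 and 0 in Tuba8 and Tubb5. The transcripts of Tuba3a and Tuba3b were identical in 94.3% of bases and their upstream windows in 67.6%. Values of Tuba1a and Tuba1b are therefore the most uncertain as levels, and ratios of 1 gene between populations are less exposed to this loss.

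Tuba3a and Tuba3b, the α-tubulins known as testis isotypes, were the germ cell pair, and both were highest in pSC. Tuba3b was at 1.44 UMIs per 10000 in SPG_undiff, 3.83 in SPG_diff, 1.52 in preLep, 1.77 in Lep_Zygo1, 2.89 in Lep_Zygo2, 8.36 in pSC, 3.67 in dSC, 2.63 in rST and 6.21 in eST. Outside the control germ line it was at 0.330 in soma_Sertoli, 1.97 in soma_CKO, 0.839 in soma_unknown and 1.06 in SPG_undiff_CKO. It thus had its peak in pSC, lower ones in eST and SPG_diff, and its lowest value in Sertoli cells. Tuba3a was at 2.34 in SPG_undiff, 2.62 in SPG_diff, 2.76 in preLep, 1.98 in Lep_Zygo1, 2.37 in Lep_Zygo2, 5.58 in pSC, 2.45 in dSC, 1.59 in rST and 2.40 in eST. Its somatic values were 0.568 in soma_Sertoli, 1.09 in soma_CKO and 0.790 in soma_unknown, with 0.970 in SPG_undiff_CKO. Apart from pSC, Tuba3a was nearly level from SPG_undiff to dSC, whereas Tuba3b varied more.

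From Lep_Zygo2 to pSC Tuba3b was 2.83-fold and Tuba3a 2.30-fold higher, on the scale of the value plus 0.1 that all RNA ratios here use. These ratios lay above those of 99.8% and 99.5% of the 15250 genes whose mean over populations reached 0.05 per 10000. From pSC to dSC they were 0.446 for Tuba3b and 0.448 for Tuba3a, and 0.0262% and 0.0393% of genes had a lower ratio. Across the 13 populations the log2 levels of the pair had a Pearson r of 0.84, as a description over columns that share libraries. The Tuba3b value in SPG_diff stood beside signs of late germ cells in that column: the 4 elongating spermatid markers summed to 9.88 per 10000 in SPG_diff, 0.511 in SPG_undiff and 0.0149 in preLep, and all 4 were higher in SPG_diff than in either. In addition, 84.5% of SPG_diff cells came from the 8-week-old Cre/+ library. The part of these cells in the 2.55-fold difference of Tuba3b from SPG_undiff to SPG_diff was not tested.

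**Figure D1:**
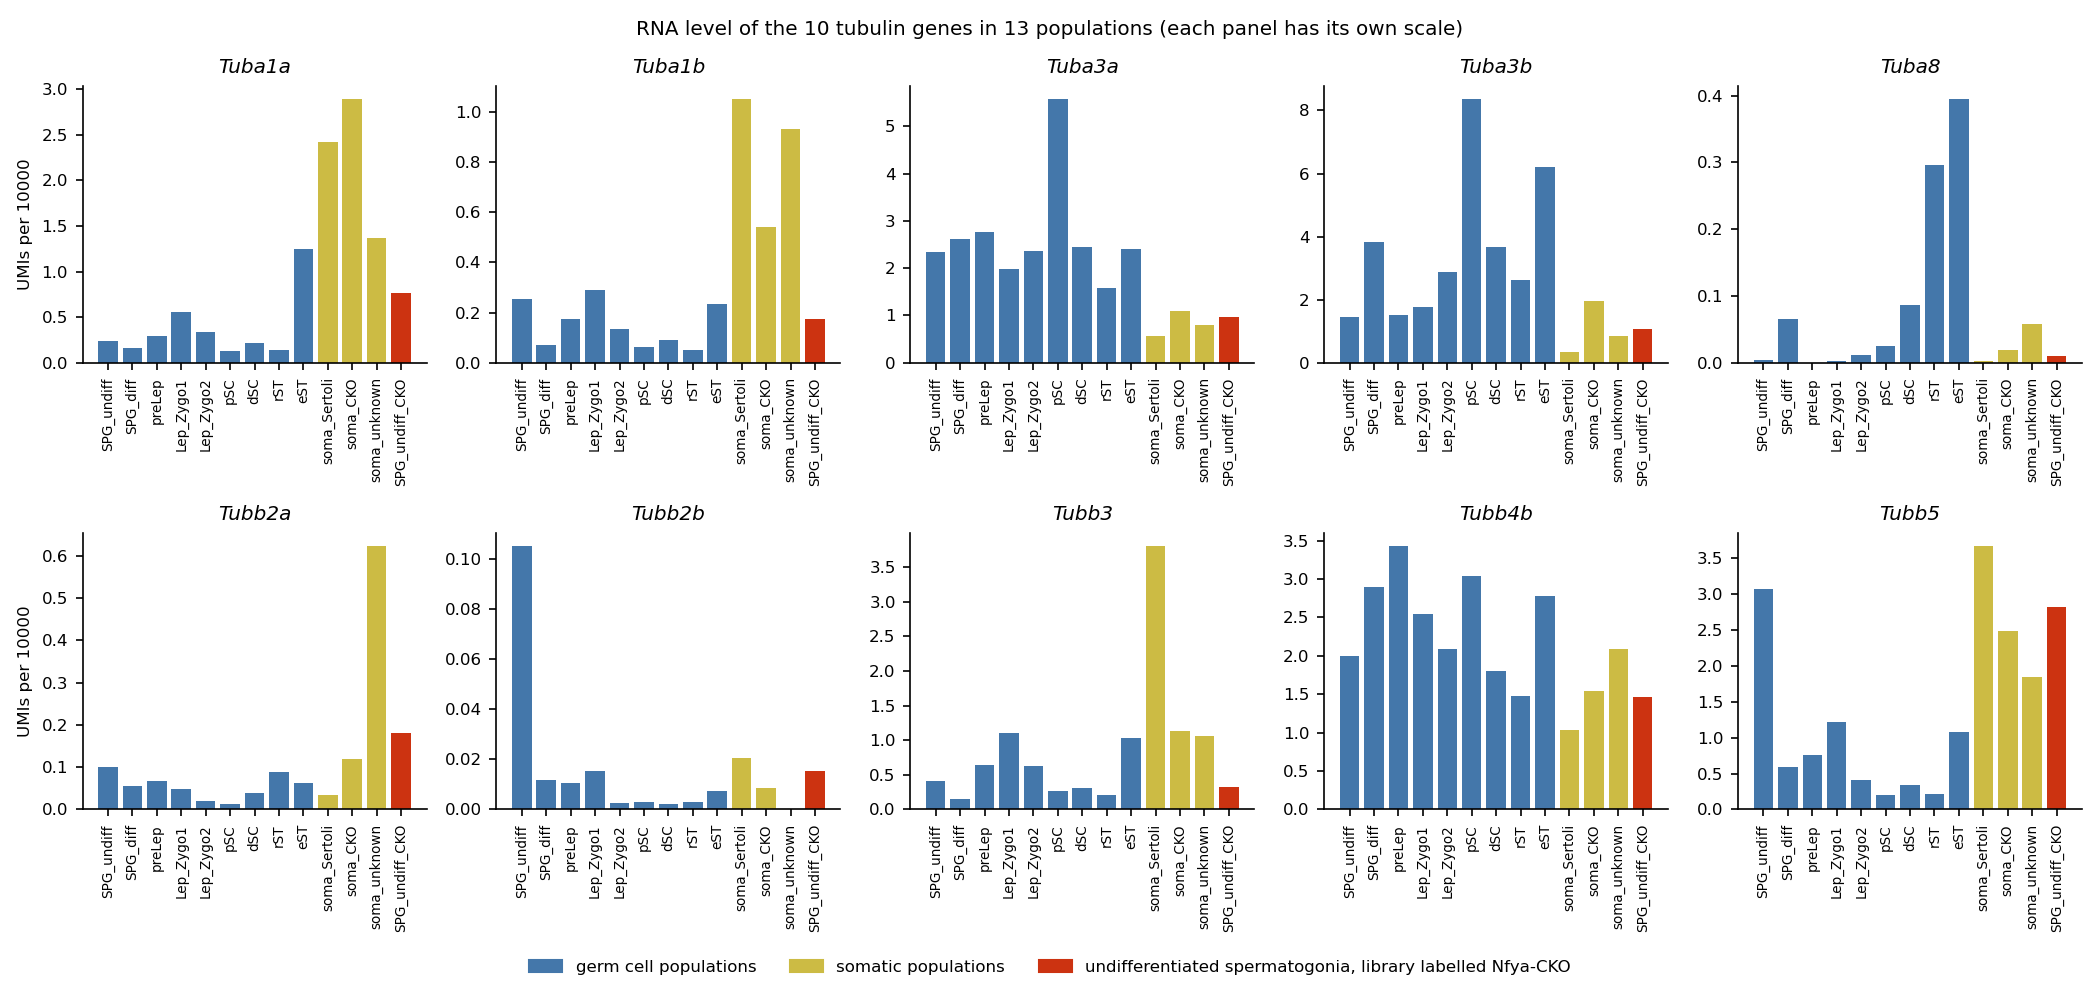
RNA level of each tubulin (vertical axis, UMIs per 10000) in the 13 populations (horizontal axis), 1 pooled value per population and no error bars because there are no replicates. Tuba3a and Tuba3b are highest in pSC, and Tuba1a, Tuba1b, Tubb3 and Tubb5 are highest in somatic populations. Tubb5 is at 3.67 in soma_Sertoli, 3.07 in SPG_undiff and 2.83 in SPG_undiff_CKO.

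Tuba8, a divergent α-tubulin, was a late gene at a low level. It was listed at 0 in preLep and was at 0.00368 UMIs per 10000 in SPG_undiff, 0.0651 in SPG_diff, 0.00266 in Lep_Zygo1, 0.0111 in Lep_Zygo2, 0.0258 in pSC, 0.0871 in dSC, 0.297 in rST and 0.395 in eST. Other populations were between 0.00189 (soma_Sertoli) and 0.0585 (soma_unknown). The value in rST was 2.12-fold that in dSC on the value plus 0.1 scale. Tuba8 followed the 4 elongating spermatid markers over the 13 populations with r = 0.87, and the small value in SPG_diff stands in the same column as the spermatid markers given above.

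Tuba1a and Tuba1b, α-tubulins that most cell types use, were highest outside the germ line. Tuba1a was at 2.89 UMIs per 10000 in soma_CKO, 2.42 in soma_Sertoli and 1.37 in soma_unknown. In germ cells it was at 0.241 in SPG_undiff, 0.160 in SPG_diff, 0.298 in preLep, 0.558 in Lep_Zygo1, 0.333 in Lep_Zygo2, 0.132 in pSC, 0.213 in dSC, 0.137 in rST and 1.24 in eST, with 0.761 in SPG_undiff_CKO. Germ cell values were thus highest in eST, SPG_undiff_CKO and Lep_Zygo1, the germ cell columns with the highest Sertoli marker sums (35.9, 24.4 and 11.4). Without Clu these sums were 4.55, 1.59 and 3.16, and Lep_Zygo2 (1.97) was above SPG_undiff_CKO. Tuba1b was at 1.05 in soma_Sertoli, 0.932 in soma_unknown and 0.542 in soma_CKO, and between 0.0514 (rST) and 0.290 (Lep_Zygo1) in all germ cell populations, SPG_undiff_CKO (0.173) included.

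The Tuba1a level followed the summed Sertoli markers closely over the 13 populations, with r = 0.98 on the log2 scale. The same r was 0.80 for Tuba1b, 0.75 for Tubb3 and 0.73 for Tubb5, and it was −0.77 for Tuba3a. Clu carries much of that sum, and without it r was 0.93 for Tuba1a, 0.92 for Tuba1b, 0.97 for Tubb3, 0.68 for Tubb5 and −0.73 for Tuba3a, a variation chosen after seeing the data. These are descriptions over 13 columns that share libraries. Whether Tuba1a RNA in a germ cell column came from germ cells or from somatic RNA in the same barcodes cannot be told apart in pooled values.

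**Figure D2:**
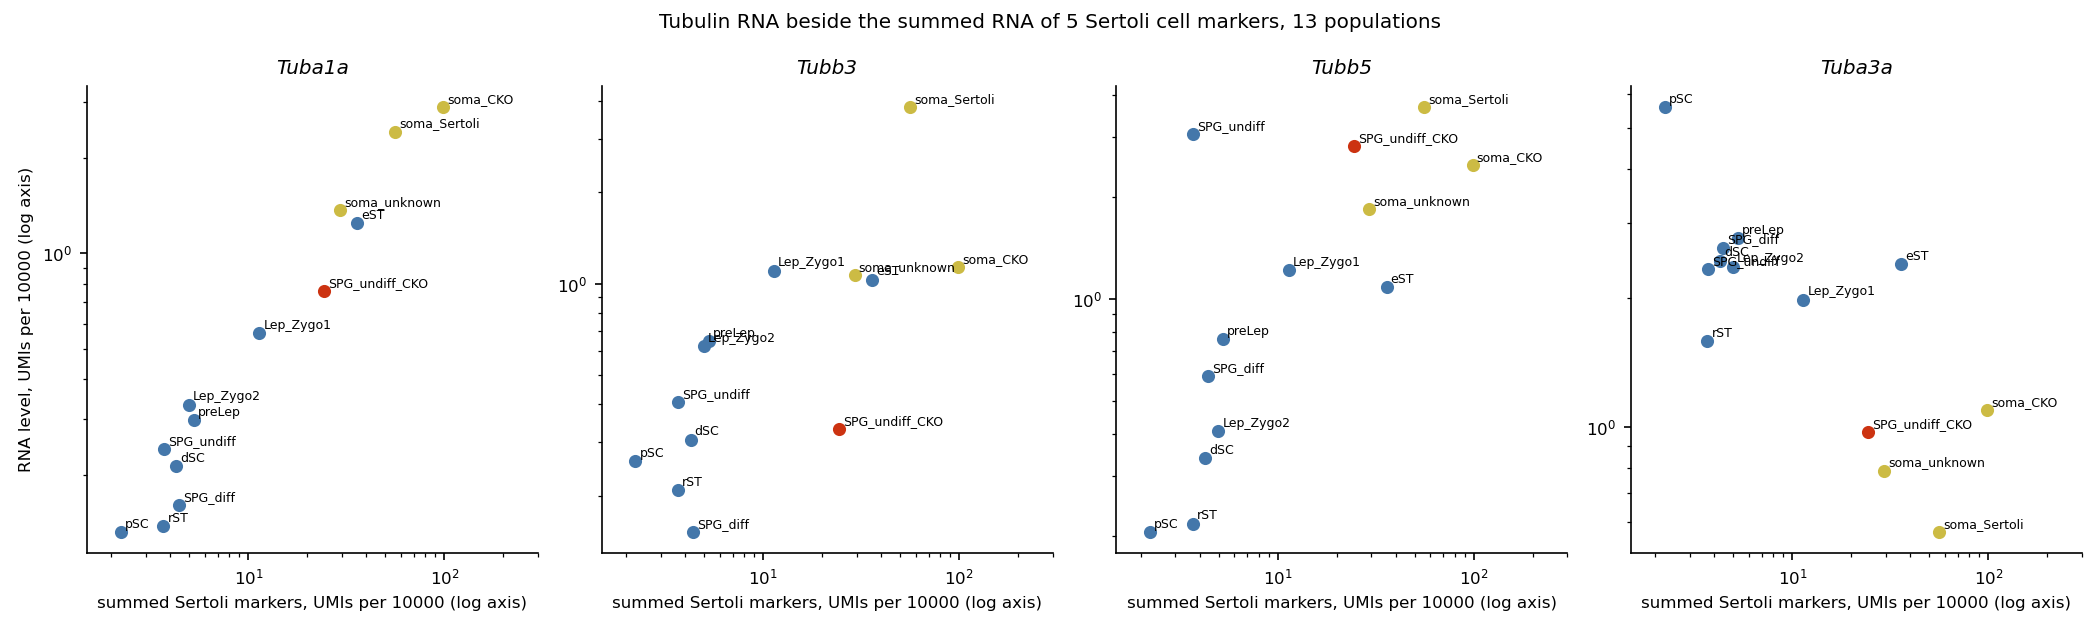
Level of tubulins (vertical axis) against the sum of 5 Sertoli markers (horizontal axis), both in UMIs per 10000 on log axes, 1 point per population. Tuba1a is high where the sum is high, eST (35.9) and SPG_undiff_CKO (24.4, or 1.59 without Clu) included, while Tuba3a is lowest in soma_Sertoli.

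Among the β-tubulins, Tubb4b, a constitutive isotype that is also a main component of cilia and flagella, varied least of the 3 with a level above 1 UMI per 10000 in some germ cell population. It was at 2.0 UMIs per 10000 in SPG_undiff, 2.90 in SPG_diff, 3.43 in preLep, 2.54 in Lep_Zygo1, 2.08 in Lep_Zygo2, 3.04 in pSC, 1.80 in dSC, 1.48 in rST and 2.78 in eST. In the other populations it was at 1.03 in soma_Sertoli, 1.54 in soma_CKO, 2.09 in soma_unknown and 1.46 in SPG_undiff_CKO. No step between neighbouring germ cell populations reached 2-fold for Tubb4b.

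Tubb5, the class I β-tubulin of dividing cells, had the opposite course in spermatogonia. It was at 3.07 in SPG_undiff and 0.592 in SPG_diff, a ratio of 0.218, then at 0.759 in preLep, 1.22 in Lep_Zygo1, 0.406 in Lep_Zygo2, 0.205 in pSC, 0.340 in dSC, 0.217 in rST and 1.09 in eST. SPG_undiff_CKO, at 2.83, was close to SPG_undiff, and soma_Sertoli was at 3.67, soma_CKO at 2.49 and soma_unknown at 1.84. Tubb5 was therefore high at the start of the germ line and in somatic cells. In SPG_undiff the Sertoli markers summed to 3.70, against 4.41 in SPG_diff and 3.68 in rST, where Tubb5 was low. The 3 stroma markers summed to 3.22 in SPG_undiff, a sum exceeded in soma_CKO (11.8). Col1a1 alone was at 3.03 there, with Pdgfra at 0.163 and Dcn at 0.0288 in SPG_undiff. The part of somatic RNA in the Tubb5 value was not tested. The transcript of Tubb5 had no 71-base window with a copy elsewhere, as was the case for Tuba8, so its counts are little exposed to lost reads of this kind.

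Tubb3, known as the neuronal β-tubulin, was highest in Sertoli cells. It was at 3.80 in soma_Sertoli, 1.14 in soma_CKO and 1.06 in soma_unknown. Along the germ line it was at 0.408 in SPG_undiff, 0.152 in SPG_diff, 0.648 in preLep, 1.10 in Lep_Zygo1, 0.623 in Lep_Zygo2, 0.260 in pSC, 0.306 in dSC, 0.209 in rST and 1.03 in eST, and at 0.331 in SPG_undiff_CKO. The germ cell values thus had a low peak in Lep_Zygo1, where the Sertoli markers summed to 11.4 per 10000 against 5.27 in preLep and 4.97 in Lep_Zygo2. From soma_Sertoli to soma_CKO Tubb3 had a ratio of 0.316 while Tuba1a had 1.19.

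Tubb2a and Tubb2b, isotypes best known from neurons, were near the floor of the data. Tubb2a was between 0.0138 (pSC) and 0.119 (soma_CKO) in 11 populations, at 0.180 in SPG_undiff_CKO and at 0.624 in soma_unknown, where the 4 endothelial markers summed to 21.6. Tubb2b was at 0.105 in SPG_undiff, at most 0.0205 elsewhere, and listed at 0 in soma_unknown. It was the 1 member that missed the mean of 0.05, so 9 of 10 passed the filter on low values; ratios were still computed for all 10.

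The isotype mix of each population was taken as the share of each gene's UMIs per kilobase of transcript within the 5 α or the 5 β genes. Counts were collapsed by UMI and coordinate, and whether they scale with transcript length was not tested, so shares without the division are given where the leading gene differs. Tuba3a and Tuba3b together led the α genes in all 9 control germ cell populations. Tuba3a had 54.9% in SPG_undiff, 39.1% in SPG_diff, 58.4% in preLep and 43.4% in Lep_Zygo1, and Tuba3b had 33.5%, 56.5%, 31.8% and 38.3%. From Lep_Zygo2 on Tuba3b was the larger, with 50.2% in Lep_Zygo2, 58.8% in pSC, 56.2% in dSC, 55.5% in rST and 59.1% in eST. In soma_Sertoli Tuba1a had 54.9% and Tuba1b 24.2%, with 13.2% for Tuba3a and 7.60% for Tuba3b. Sertoli and germ cells thus had different leading α genes, and the reads lost to copies can lower Tuba1a and Tuba1b more than Tuba3a and Tuba3b.

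For the β genes, Tubb4b had 83.7% of the UMIs per kilobase in SPG_diff, 75.2% in preLep, 58.3% in Lep_Zygo1, 71.2% in Lep_Zygo2, 88.9% in pSC, 77.3% in dSC, 78.1% in rST and 62.5% in eST. In SPG_undiff Tubb4b had 45.3% and Tubb5 42.0%. Without the division by length, Tubb5 had 54.0% and Tubb4b 35.2% there, and in soma_CKO Tubb5 had 47.0% and Tubb4b 29.1%, against 35.7% and 36.6% per kilobase. The leading β gene of these 2 columns thus depends on the division, and that of the other 11 does not. In soma_Sertoli Tubb3 had 51.4%, Tubb5 32.6% and Tubb4b 15.2%. The main β gene was therefore Tubb4b from SPG_diff to eST and Tubb3 in Sertoli cells.

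**Figure D3:**
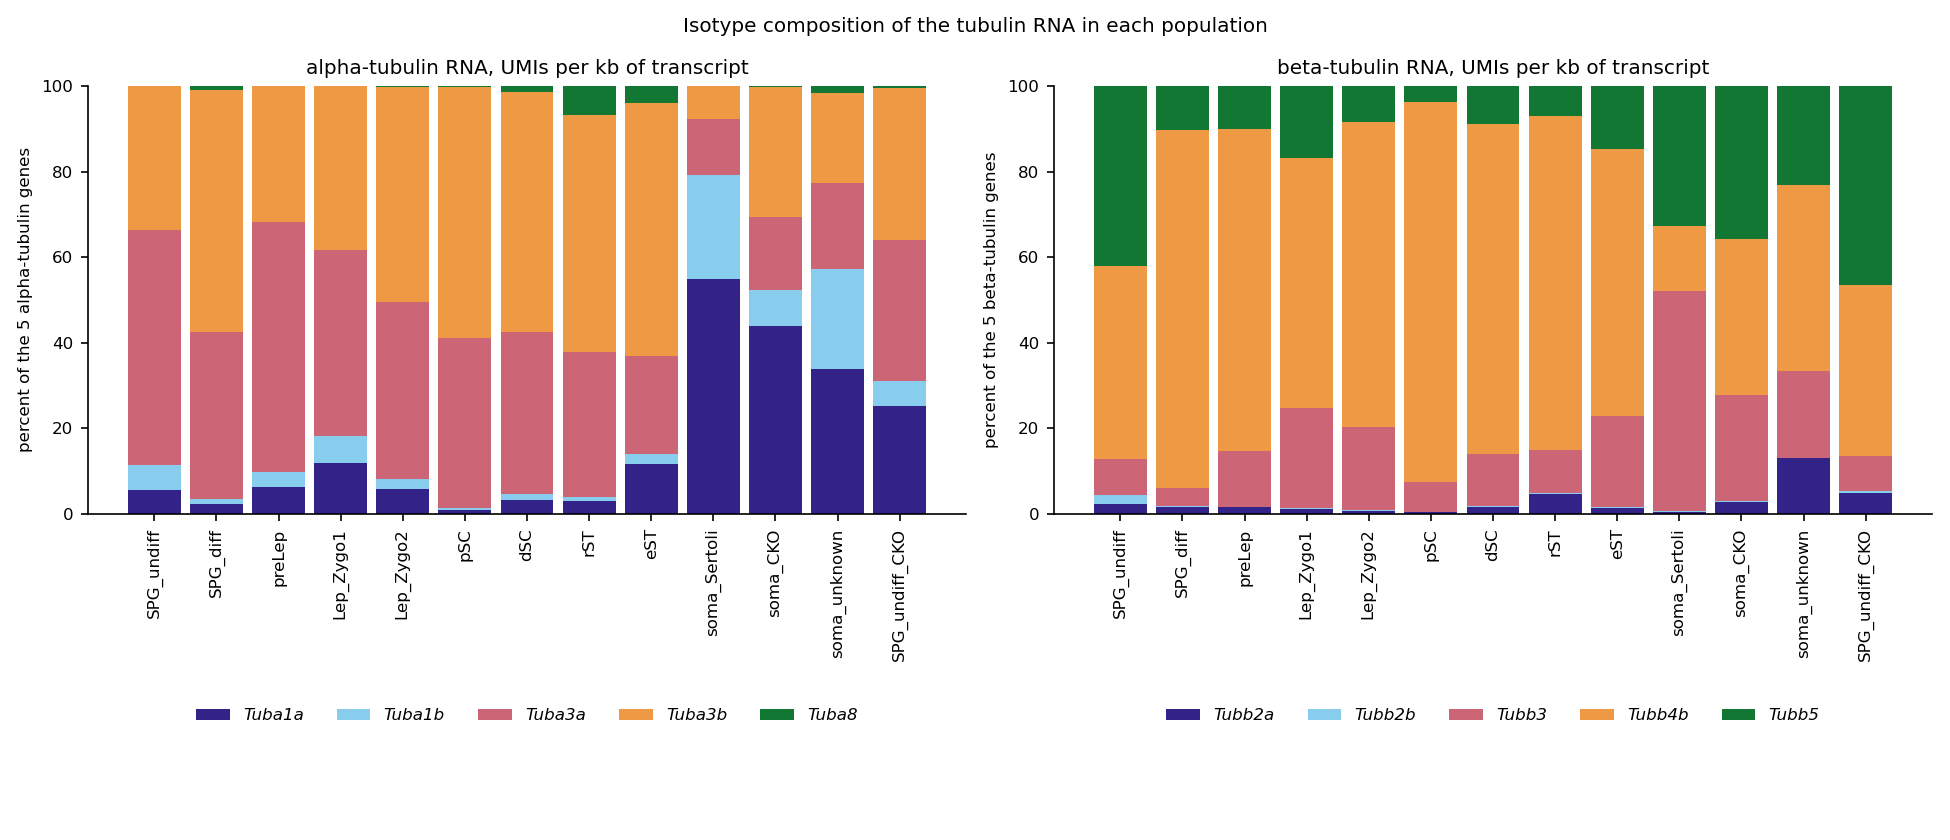
Share (%, vertical axis) of each isotype in the UMIs per kilobase of transcript of the 5 α genes (left) and the 5 β genes (right), 1 stacked bar per population, summing to 100. Tuba3a and Tuba3b fill most of the germ cell α bars, Tubb4b most of the β bars from SPG_diff to eST, and Tuba1a and Tubb3 have the largest shares in soma_Sertoli.

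Along the germ line, members at least 2-fold apart between neighbouring populations were counted beside the percent of the 15250 genes past the same fold, with no test. From SPG_undiff to SPG_diff 1 of 10 was higher (Tuba3b; 9.57% of all genes) and 3 were lower (Tuba1b, Tubb3 and Tubb5; 6.28%). From SPG_diff to preLep 1 was higher (Tubb3, 2.97-fold; 1.27%) and 1 lower (Tuba3b, 0.413; 10.9%). From preLep to Lep_Zygo1 there were 0 either way (4.41% of genes higher, 0.590% lower). From Lep_Zygo1 to Lep_Zygo2 there were 0 higher (5.45%) and 1 lower (Tubb5, 0.385; 3.97%). For 10 genes the counts from preLep to Lep_Zygo2 are near the background shares.

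In pSC against Lep_Zygo2 the 2 higher members were Tuba3a and Tuba3b (1.38% of genes), and Tubb3 was lower at a ratio of 0.497 (3.54%), a call that is lost when ratios are centred on the median gene. In dSC against pSC 0 were higher (4.92%) and the same pair, Tuba3a and Tuba3b, was lower (0.184%). In rST against dSC 1 was higher (Tuba8; 10.6%) and 0 lower (3.34%). In eST against rST 5 were higher (10.1%) and 0 lower (10%). Those 5 were Tuba1a at 5.65-fold, Tubb5 at 3.73-fold, Tubb3 at 3.66-fold, Tuba3b at 2.31-fold and Tuba1b at 2.21-fold. Of these, Tuba1a, Tuba1b, Tubb3 and Tubb5 have their highest RNA in somatic columns, Tubb5 at 3.67 in soma_Sertoli against 3.07 in SPG_undiff. In the same columns 4 of 5 Sertoli markers were higher in eST than in rST, Clu at 31.3 against 2.90, Sox9 at 1.90 against 0.299 and Wt1 at 2.45 against 0.424. Amh, in contrast, was at 0.00436 and 0.00641. Prm1 and the other 3 elongating spermatid markers were higher too and summed to 118 in eST. All 5 Leydig markers were higher in eST as well, with a sum of 5.70 against 0.786. The part of somatic cell RNA and of the shared barcodes in the eST values was not tested.

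In the somatic columns, soma_CKO against soma_Sertoli, 1 member was at least 2-fold higher (Tuba3b, 4.81-fold; 15.4% of genes) and 1 lower (Tubb3; 5.98%). These columns differ in age and library as well as in cell types: 87.8% of soma_Sertoli cells came from WT 11 dpp and 78.8% of soma_CKO cells from the library labelled Nfya-CKO. In soma_CKO 4119 of 5880 cells shared a barcode with another library, and Prm1, a spermatid marker, was at 1.54 against 0.00198 in soma_Sertoli; their part in the Tuba3b value was not tested. Age, library and cell type cannot be told apart.

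The comparison of SPG_undiff_CKO with SPG_undiff asked how tubulin RNA differs in spermatogonia labelled as lacking NFYA. Tuba3a, at 0.970 UMIs per 10000 against 2.34, was lower at a ratio of 0.439 (log2 −1.19). Tuba1a, at 0.761 against 0.241, was higher at 2.52 (log2 1.33). These were the only 2 of 10 members past 2-fold (1 higher, 4.09% of genes; 1 lower, 3.08%). With 0.5 in place of 0.1 added to each value, 0 of 10 passed. The other 8 had log2 ratios of −0.83 (Tubb2b), −0.43 (Tubb4b), −0.41 (Tuba3b), −0.38 (Tuba1b), −0.24 (Tubb3), −0.11 (Tubb5), 0.09 (Tuba8) and 0.48 (Tubb2a). The median ratio of the 10 was 0.809, against 1.01 over all genes tested.

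Other values also differed between these columns. In SPG_undiff_CKO 4 of 5 Sertoli markers and 5 of 5 Leydig markers were higher than in SPG_undiff, with Clu at 22.8 against 2.50 and Insl3 at 39.8 against 0.0640, while Amh was at 0.0116 against 0.0431. Among the markers of undifferentiated spermatogonia 3 of 5 were higher and Zbtb16 (4.15 against 8.74) and Sall4 (2.08 against 4.88) were lower. The 2 columns also differ in depth, with median UMI counts per cell of 18361 and 9290, in the median share of mitochondrial UMIs (0.354% and 0.904%), in macrophage markers (4 of 4 higher, sums of 0.282 and 0.0669) and peritubular markers (3 of 3 higher, 0.188 and 0.149), and in age, since 50% of SPG_undiff cells came from WT 11 dpp and 7.89% from the 8-week-old Cre/+ library. Genotype, age and library cannot be told apart.

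SPG_diff, which is mostly 8-week-old Cre/+, served as a second reference. Against it 2 members were higher (Tubb5 at 4.23 and Tuba1a at 3.31; 6.86% of genes) and 2 lower (Tuba3b at 0.296 and Tuba3a at 0.393; 10.5%). Tuba3a was thus below and Tuba1a above both references, while Tubb5 was near SPG_undiff and far above SPG_diff. The SPG_undiff_CKO column enters both comparisons, so they are not independent. Its shared barcodes also tie it to this reference, since 143 of its 176 pairs were with SPG_diff cells, and the part of these pairs was not tested.

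**Figure D4:**
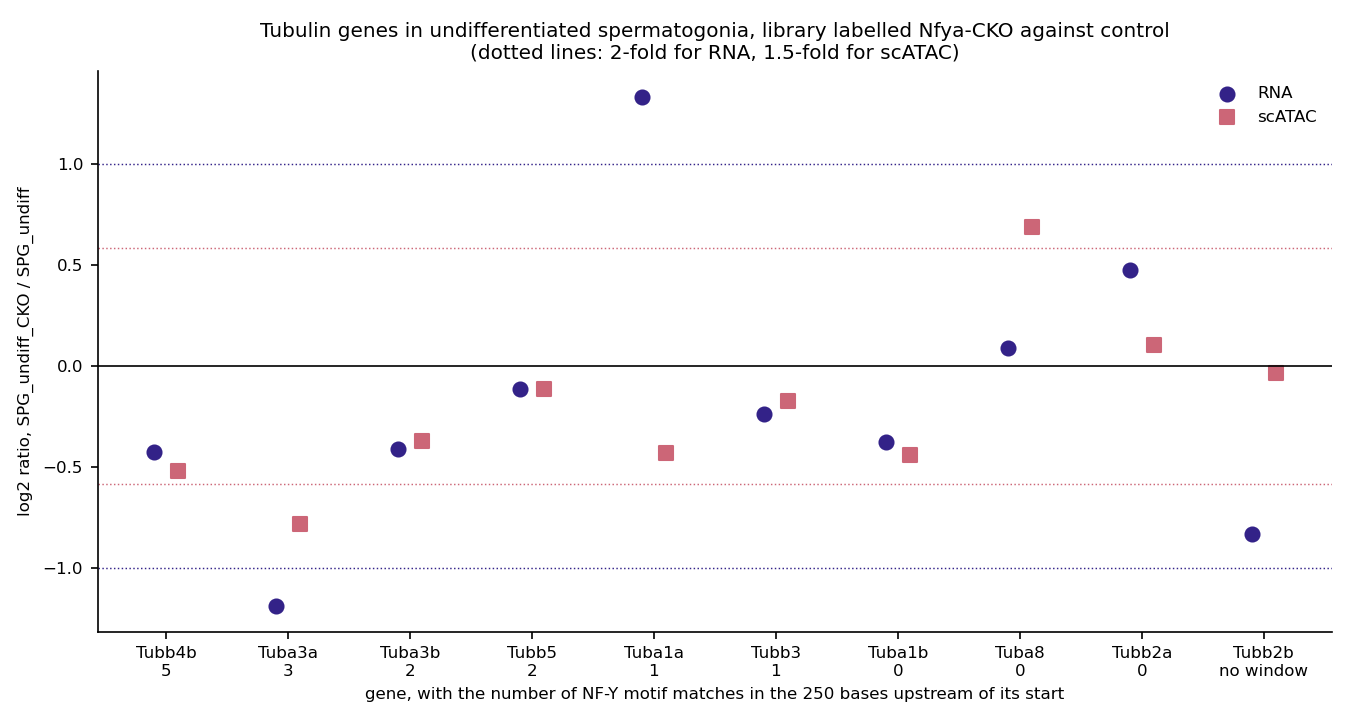
log2 ratio of SPG_undiff_CKO to SPG_undiff for each tubulin, for RNA (value + 0.1 per 10000) and scATAC (value + 1 on the scale of 1000000), with lines at 2-fold for RNA and 1.5-fold for scATAC. Tuba3a is below 0 in both (−1.19 and −0.78), whereas Tuba1a is above 0 in RNA (1.33) and below in scATAC (−0.43).

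Chromatin accessibility of the tubulin genes was read from the scATAC matrix; the study's methods define promoter accessibility as coverage near start sites, but whether this matrix holds that is not stated, so levels are not compared between genes. Mitochondrial genes took 31.2% (preLep) to 64.5% (soma_CKO) of a population's sum, so values are also given scaled without them where that changes their order or a ratio by over 1.5 times; outside the comparison of SPG_undiff_CKO with SPG_undiff this scaling was added after seeing the data. In SPG_undiff_CKO Tuba3a was at 23.2 on the scale of 1000000 against 40.6 in SPG_undiff, a ratio of 0.583, and Tuba8 at 27.9 against 16.9, a ratio of 1.61. These 2 were the members past 1.5-fold, 1 higher (9.42% of 30652 genes) and 1 lower (5.73%). Tubb4b was next, at 56.3 against 81.2 (0.697), followed by Tuba1b (0.737), Tuba1a (0.743) and Tuba3b (0.773). Tubb3 (0.888), Tubb5 (0.924), Tubb2b (0.976) and Tubb2a (1.08) were nearer to 1. Scaled without mitochondrial genes, Tubb5 and Tubb2b were at 1.01 and 1.07 and thus on the other side of 1, while Tuba3a was at 0.635 and Tuba8 at 1.79. Against SPG_diff 4 members were at least 1.5-fold higher in scATAC (20.8% of genes). They were Tuba8 at 2.39, Tubb2b at 2.15, Tubb3 at 1.81 and Tuba1a at 1.70. The 2 lower (25.0%) were Tubb4b at 0.435 and Tuba3a at 0.513. Tuba3a scATAC was thus below both references, while Tuba1a was below SPG_undiff and above SPG_diff. Without mitochondrial genes Tubb2a, at 1.77, passed 1.5-fold against SPG_diff too. Mean TSS enrichment, a measure of scATAC signal at start sites, was 7.99 in SPG_undiff_CKO and 12.7 in SPG_undiff.

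The tubulins can be set beside all genes grouped by their CCAAT matches. The median scATAC ratio of SPG_undiff_CKO to SPG_undiff was 0.978 over 12450 genes with 0 matches, 0.965 over 4639 with 1, 0.867 over 1540 with 2 and 0.747 over 645 with at least 3. For RNA these medians were 1.02, 1.01, 0.938 and 0.871. Tuba3a (3 matches) and Tubb4b (5) had scATAC ratios of 0.583 and 0.697 and RNA ratios of 0.439 and 0.744. Tuba3b and Tubb5, with 2 matches each, had scATAC ratios of 0.773 and 0.924 and RNA ratios of 0.754 and 0.924. Tuba1a and Tubb3, with 1 match each, had scATAC ratios of 0.743 and 0.888 and RNA ratios of 2.52 and 0.848. Among the tubulins with 0 matches Tuba1b was at 0.737 in scATAC, Tubb2a at 1.08 and Tuba8 at 1.61, so they lay on both sides of 1. The RNA ratios of these were 0.771, 1.39 and 1.06. Tubulins below the scATAC median of their class were thus found with any of these numbers of matches. The part of the lower TSS enrichment of SPG_undiff_CKO in these ratios was not tested.

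Across populations, scATAC separated germ cells from Sertoli cells for the germ cell isotypes. Tuba3a was at 30.0 to 50.3 in the 9 control germ cell populations, 23.2 in SPG_undiff_CKO, and at 9.67 in soma_Sertoli, 13.2 in soma_CKO and 8.52 in soma_unknown. Tuba3b was at 20.6 to 38.6 in the control germ cells and 5.37 in soma_Sertoli. Its other values were 21.9 in SPG_undiff_CKO, 9.75 in soma_CKO and 18.5 in soma_unknown. For both genes the pooled soma_Sertoli value lay below all 9 control germ cell values. How many of all genes have such an order was not counted. Scaled without mitochondrial genes, Tuba3a was at 53.6 to 99.4 in control germ cells against 19.7 in soma_Sertoli, and Tuba3b at 37.4 to 90.8 against 10.9. On that scale Tuba3b was at 44.2 in soma_unknown, inside its germ cell range. The place of pSC depended on that scaling. With all genes, Tuba3a was at 40.6 in SPG_undiff, 50.3 in preLep and 39.4 in pSC, and without mitochondrial genes at 68.3, 73.2 and 99.4, with pSC the highest of all populations, as in RNA.

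Tubb3, Tuba1a and Tuba1b had the reverse order. For Tubb5 the order depended on the scaling. With all genes it was at 71.9 in soma_Sertoli and 86.2 in preLep, and without mitochondrial genes at 147 and 125. Tubb3 was at 47.0 in soma_Sertoli and at 5.42 (pSC) to 25.2 (SPG_undiff) in control germ cells. Tuba1a was at 38.8 in soma_Sertoli against 8.15 to 27.6, and Tuba1b at 46.0 against 10.6 to 42.7. Without mitochondrial genes soma_Sertoli was again above the control germ cells for Tubb3, Tuba1a and Tuba1b, at 95.8, 79.2 and 93.9. The 5 members with RNA at least 2-fold higher in eST than in rST differed in scATAC. Tubb3 was higher, at 12.2 against 7.31 (a ratio of 1.59), Tuba1a (8.69 against 9.68) and Tubb5 (28.4 against 30.7) were near 1, and Tuba3b (0.729) and Tuba1b (0.541) were lower; eST held 124 nuclei, of which 4 shared a barcode. Tubb5 scATAC was at 59.3 in SPG_undiff, 68.7 in SPG_diff and 86.2 in preLep, then 24.2 in Lep_Zygo2 and 20.4 in pSC, so the lower Tubb5 RNA in SPG_diff came with no lower signal at the gene. From preLep to Lep_Zygo2 its ratio was 0.288, and 0.536 without mitochondrial genes, which took 31.2% and 63.8% of the 2 sums. Tubb4b scATAC was between 48.1 (soma_unknown) and 131 (SPG_diff), and without mitochondrial genes it was highest in Lep_Zygo2 (204) and lowest in SPG_undiff_CKO (104).

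Over the 13 populations, RNA and scATAC had a Pearson r on the log2 scale of 0.84 for Tuba3a, 0.71 for Tuba3b, 0.70 for Tubb2b, 0.62 for Tuba1a, 0.57 for Tubb5, 0.56 for Tubb3, 0.46 for Tubb4b, 0.31 for Tuba1b, 0.05 for Tubb2a and −0.08 for Tuba8. Without mitochondrial genes r was 0.92 for Tuba3a, 0.79 for Tuba3b and −0.21 for Tuba8. Over the 9 control germ cell populations alone, with all genes, r was 0.23 for Tuba3a, 0.44 for Tuba3b, 0.83 for Tubb2b and 0.02 for Tuba1a. It was 0.59 for Tubb5, 0.38 for Tubb3, 0.13 for Tubb4b, 0.10 for Tuba1b, 0.47 for Tubb2a and 0.05 for Tuba8. Tuba8, for which rST and eST made up 70.8% of the sum of its 13 RNA values, had its highest scATAC values in SPG_undiff_CKO (27.9) and SPG_undiff (16.9), with 13.1 in rST. These r values describe columns that share libraries and depth.

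**Figure D5:**
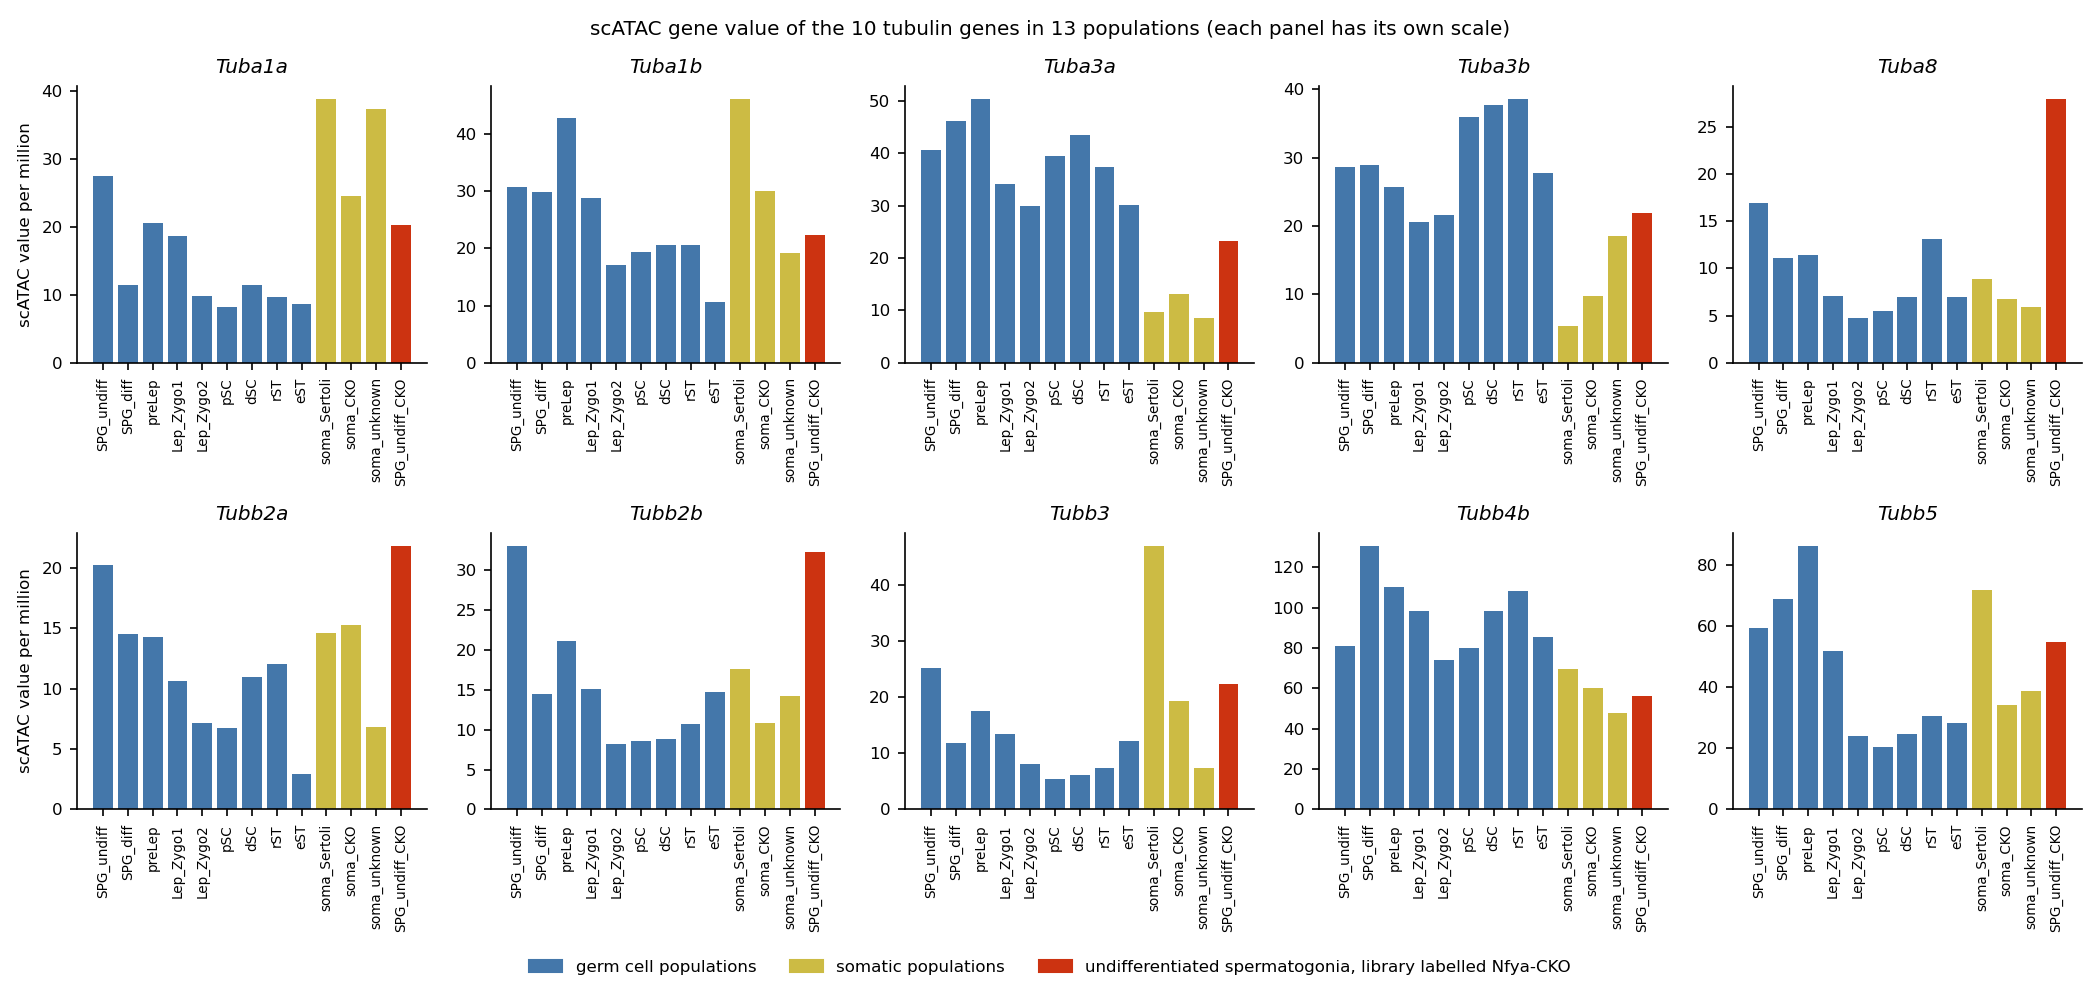
scATAC value of each tubulin gene (vertical axis, scaled to 1000000 per population) in the 13 populations (horizontal axis), pooled and without error bars. Tuba3a and Tuba3b are lower in soma_Sertoli (9.67 and 5.37) than in every control germ cell population, and Tubb3 is highest there (47.0).

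Other genes of the tubulin pathway were read by function. Tubulin folding needs prefoldin, the chaperonin CCT and the tubulin cofactors, and 21 of the 22 genes listed passed the filter. None was 2-fold higher or lower in pSC than in Lep_Zygo2 (1.38% and 3.54% of all genes). A higher value in pSC was found for 18 of 21, against 39.9% of all genes, and the median log2 ratio was 0.37, against −0.10 over all genes. In dSC against pSC the median was −0.45, against 0.08. Tcp1, a subunit of CCT, was at 2.73 in Lep_Zygo2, 4.2 in pSC and 2.97 in dSC.

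Enzymes that modify tubulin tails and lysines, namely tyrosine, glutamate and glycine ligases of the Ttll family, Agbl carboxypeptidases, vasohibins, the acetylase Atat1 and the deacetylases Hdac6 and Sirt2, had 24 of 26 genes past the filter. The count past 2-fold higher was 5 (20.8%, against 4.41% of all genes) in Lep_Zygo1 against preLep, 8 (33.3%, against 5.45%) in Lep_Zygo2 against Lep_Zygo1 and 6 (25%, against 4.92%) in dSC against pSC, but 0 (against 1.38%) in pSC against Lep_Zygo2, where 1 was lower (3.54%). In rST against dSC it was 8 (33.3%, against 10.6%), among them the glycine ligases Ttll8 (8.75 against 2.49) and Ttll3 (4.83 against 1.5), the deglutamylase-family gene Agbl1 (3.96 against 0.997) and the vasohibin Vash2 (2.74 against 0.827). In eST against rST 11 were lower (45.8%, against 10% of all genes), among them Agbl1 (0.764) and Ttll8 (1.97), and 2 were higher (10.1% of all genes), Hdac6 at 1.41 against 0.291 being one. In SPG_diff against SPG_undiff 13 (54.2%) were higher, against 9.57% of all genes, Vash2 (0.538 against 0.0826) and Ttll6 (0.896 against 0.20) included, and in preLep against SPG_diff 13 were lower, against 10.9% of all genes. This coincided with the spermatid markers in the SPG_diff column given above, and their part was not tested. In SPG_undiff_CKO against SPG_undiff 0 of 24 passed in either direction (4.09% and 3.08% of all genes), whereas against SPG_diff 12 (50%) were lower, against 10.5% of all genes.

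Of microtubule-binding proteins, 15 of 19 passed the filter, and in SPG_undiff_CKO 1 was lower, Stmn1, which binds free tubulin dimers, at 0.710 against 2.21 (log2 −1.51; 3.08% of all genes lower). Against SPG_diff, at 0.779, Stmn1 was not past the fold. The 8 severing genes, the 8 genes of the γ-tubulin ring complex and the 7 other tubulins that passed had 0 past 2-fold in that comparison.

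The genes with the most similar RNA pattern over the 13 populations were taken by Pearson r among 10386 genes. Tcp1 and Ccdc92 were nearest to Tuba3b (r = 0.97 for each), and Npm3, a nucleoplasmin family protein, and Thap1 to Tuba3a (r = 0.97 and 0.96). Gm11634 and Capza3, an actin-capping protein of spermatids, were nearest to Tuba8 (r = 0.99 for each). Basp1 and Aard were nearest to Tubb3 (r = 0.99 for each), Amotl2 and Itm2c to Tuba1b, Mfsd1 and Stk24 to Tubb5, Cul3 and Eif1b to Tubb4b (r = 0.90 for each), Egr4 and Cd274 to Tubb2b (r = 0.86 for each), and Msn and Slc9a3r2 to Tubb2a. Nearest to Tuba1a were the gene model AC161165.4, whose values were almost those of Tuba1a (2.93 in soma_CKO and 2.44 in soma_Sertoli), and Gstm2 (r = 0.99), with 24.3 in soma_CKO and 17.4 in soma_Sertoli. Of the 20 genes so named, 7 were named again by rank correlation and 6 when soma_unknown was left out. These lists thus depend on the measure and on the populations used. Msn (1.86) and Slc9a3r2 (2.77) were highest in soma_unknown, and neither was named for Tubb2a without it.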

How the data were processed

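Nuclei of whole mouse testes were profiled on the BD Rhapsody platform. The authors aligned RNA reads to mm10 with STAR 2.7.10b, kept uniquely mapped reads and counted UMIs, and filtered cells with Seurat 5.2.1 (at least 500 genes, under 5% mitochondrial). They aligned scATAC reads with BWA 0.7.12 and filtered nuclei with ArchR 1.0.3 (1000 fragments, TSS score of 4); bedtools 2.27.1 is also in the submitters' processing notes. Doublets were removed by the authors.

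The authors deposited, per cell, counts of UMIs or fragments, the percent of mitochondrial UMIs and, for scATAC, TSS enrichment as a ratio. They deposited 1 matrix per assay with 13 population columns, whose values are the natural log of 1 plus a mean. How the matrices were made was read from the values: RNA sums to 10000 per column, as a mean over cells of equal weight, so counts and intervals cannot be recovered. Only 31569 of 343866 scATAC nuclei have an RNA population. The cell tables name 1 library CreKO_8w, which was taken as the Cre/+ library because its name starts with Cre and another library carries the Nfya name; every Cre/+ share of cells rests on this. 21 named columns of the cell tables were not used.

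Members and gene lists were chosen with earlier results of these data known. RNA ratios used value + 0.1, over genes whose mean reached 0.05 per 10000; scATAC ratios used value + 1 after scaling to 1000000. Calls were by size, 2-fold for RNA and 1.5-fold for scATAC, with no test, as a condition is 1 library. All 10 tubulins are named. Genes of the pathway lists are named where they have a mean of at least 0.2 per 10000 and are past 2-fold, at most 5 per comparison by size, and 2 genes of like pattern per tubulin. The ratio calls were tested on simulated data. Python 3.11.15, numpy 2.4.6, pandas 2.3.3 and matplotlib 3.10.9 were used.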

Additional observations from a re-analysis of the deposited data

How the results depend on the processing

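Each count of tubulins past 2-fold was recomputed with other pseudocounts and folds. With 0.01 added in place of 0.1, it was 4 of 10 in preLep against SPG_diff, 3 in Lep_Zygo2 against Lep_Zygo1, 4 in dSC against pSC, 2 in rST against dSC, 4 in soma_CKO against soma_Sertoli and 8 in SPG_undiff_CKO against SPG_diff. With 0.5 added, it was 2 in SPG_diff against SPG_undiff, 1 in preLep, 0 in Lep_Zygo2, 0 in rST and 0 in SPG_undiff_CKO against SPG_undiff. At 1.5-fold, it was 5 in preLep, 3 in Lep_Zygo1 against preLep, 5 in Lep_Zygo2, 5 in pSC against Lep_Zygo2, 2 in rST, 5 in soma_CKO and 8 in SPG_undiff_CKO against SPG_diff. At 3-fold, it was 1 in SPG_diff, 0 in preLep, 0 in Lep_Zygo2, 0 in pSC, 0 in dSC, 0 in rST, 3 in eST against rST and 0 in SPG_undiff_CKO against SPG_undiff. The other 40 of 66 recomputed counts, among them all with ratios centred on the median gene or scaled without mitochondrial genes, stayed within 1.5 times, and no called ratio of SPG_undiff_CKO to SPG_undiff changed direction, while the uncalled scATAC ratios of Tubb2b and Tubb5 changed sign without mitochondrial genes (log2 0.10 and 0.02). The RNA ratios of Tuba1b, Tuba8, Tubb2b, Tubb3 and Tubb5 were uncalled against SPG_undiff. Against SPG_diff they had the other sign (log2 0.67, −0.58, 0.04, 0.77 and 2.08), and that of Tubb5 was called higher there. The low genes Tuba8, Tubb2a and Tubb2b depend most on the pseudocount by construction. Isotype shares of UMIs taken without length moved by over 5 percentage points in 23 of 260 values recomputed per kilobase or with other tubulins in the pool, most for Tubb4b in rST (61.9% with other tubulins) and Tubb5 in SPG_undiff_CKO (46.6% per kilobase). No paired analysis was possible because each condition is 1 library per assay. Depth limits soma_unknown (99 cells) and eST scATAC (124 nuclei).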
